A study of Mus musculus with 4 samples.

Results

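Ameloblast lineage cells of the mouse molar at P1 were selected by rule from single-cell RNA sequencing of the maxillary and the mandibular molar. A cell was a barcode with at least 1000 UMIs, tags that each mark 1 captured RNA molecule, and under 10% of UMIs from mitochondrial genes. It was kept if it held at least 3 UMIs of Ambn, Enam and Mmp20 together, at least 2 of Epcam, Cdh1, Krt14 and Krt5 and at most 5 of Col1a1, Col1a2 and Col3a1. Barcodes also present in the maxillary library were dropped from the mandibular one. This gave 627 cells, 195 maxillary (7.77% of the epithelial cells) and 432 mandibular (28.8%), of 38108 deposited P1 barcodes and of 56940 in the series. Amelx was not part of the rule because its free RNA reaches other droplets.

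The study compared 4 libraries of wild type C57BL/6J mice, with labels WTB6, from maxillary and mandibular molars at E15.5 (E15 in the labels) and P1. The labels give P1, while the study's dissociation methods name P0/P1 pups. No allele was modified and no agent was given in any group. Each library was 1 pool of 6 tooth organs, with 1 library per stage and jaw, so no animal can be followed and no replicate error can be given. The P1 maxillary library held 128812956 UMIs in 18707 barcodes and the P1 mandibular library 139873101 in 19401. The selected cells had medians of 12880 and 12700.5 UMIs and of 3612 and 3583 detected genes.

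Ameloblasts are the epithelial cells that form enamel. They arise from the inner enamel epithelium, leave the cell cycle, elongate and polarize against the forming dentin, and then secrete a matrix rich in amelogenin, ameloblastin and enamelin that the protease Mmp20 starts to cleave. During maturation the protease Klk4 and ion transporters take over as the matrix is removed and mineral fills its place. At P1 the molar epithelium holds this lineage beside stratum intermedium, stellate reticulum and outer enamel epithelium.

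The P1 libraries shared 7131 barcodes, and 183 of the 195 maxillary cells (93.8%) had a barcode that was also in the mandibular library. The median depth of those 183 was 13126 UMIs as read from the maxillary library and 3133 as read from the mandibular one, a median log2 ratio of 2.07 with a range of 1.95 to 3.11. Another 12 maxillary cells had no partner, and 159 mandibular barcodes that met the rule were dropped as shared. The jaw from which the shared cells came cannot be told apart, so the maxillary and mandibular values below are not independent replicates.

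The first check set the label against Amelx, 1 enamel gene outside the rule. The other enamel genes outside it, Klk4, Amtn, Odaph and Odam, were near 0 or lower than in other epithelium, as given below. Amelx, which encodes amelogenin, had at least 1 UMI in 180 of 195 maxillary cells (92.3%) and 430 of 432 mandibular cells (99.5%), with medians of 181 and 551 UMIs per cell. Amelx had a UMI in 10.4% of 326 maxillary and 74.7% of 198 mandibular macrophages, which should lack it, at median depths of 3682 and 11530 UMIs. After thinning each cell to 2000 UMIs, the shares were 82.9% and 97.2% of ameloblast lineage cells and 3.21% and 28.0% of macrophages. Macrophages with at least 3 UMIs of the 3 rule genes numbered 4 of 326 (1.23%) and 4 of 198 (2.02%). The odontoblast-rule cells, chosen by at least 20 Dspp UMIs, over 5 collagen UMIs and at most 1 epithelial UMI, passed that limit in 22 of 23 (95.7%) and 71 of 73 (97.3%). The rule genes alone would therefore not separate these cells from the ameloblast lineage.

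The matrix level of single cells spanned a wide range. Ambn, Enam and Mmp20 together had a median of 14.0 UMIs per 10000 in maxillary cells, from 0.828 to 257, and of 26.8 in mandibular cells, from 1.26 to 569. Amelx made up a median of 1.59% of all UMIs in maxillary cells and 4.56% in mandibular cells, and up to 15.9% and 27.3%. Values just inside and just outside the limit are given with no test. At 3 rule-gene UMIs, 27 maxillary and 17 mandibular cells had Amelx levels of 3989.7 and 6045 CPM (UMIs of a gene per 1000000 UMIs of all cells of the class), and at 2 UMIs, 30 and 35 cells had 567 and 2903 CPM. The median was 1 Amelx UMI per maxillary cell on both sides, and 40 against 4 per mandibular cell. At least 10 Amelx UMIs were found in 40.7% against 16.7% of these maxillary and 70.6% against 31.4% of these mandibular cells.

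**Figure D1:**
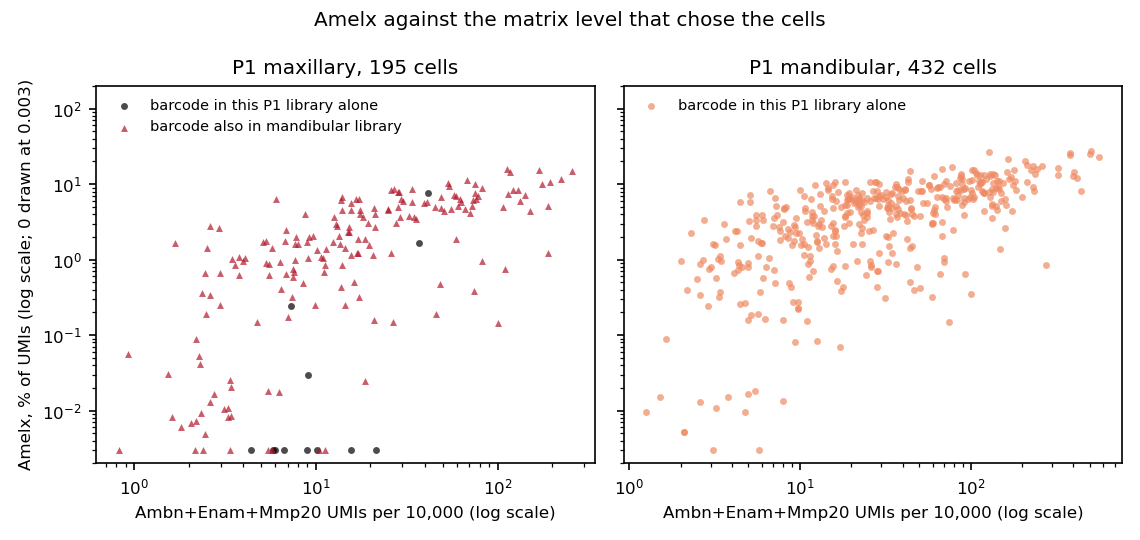
Each point is 1 cell, with Ambn+Enam+Mmp20 UMIs per 10000 on the x axis and Amelx as a percentage of the cell's UMIs on the y axis, both on log scales, for 195 maxillary and 432 mandibular cells. Triangles are barcodes also found in the mandibular library and black circles the 12 that are not. Most cells with a high matrix level have Amelx above 1%, and a scatter of cells lies near 0.

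A group of cells met the rule with almost no Amelx, and was looked at after these values were seen. It counted 34 of 195 maxillary and 13 of 432 mandibular cells with 3 or fewer Amelx UMIs, and 9 of the 12 unshared maxillary cells were in it. Their Calb1 level was 1479 and 507 CPM, against 8556 and 9413 CPM in the other selected cells. Dspp was 236 and 110 CPM against 2193 and 2201 CPM. Krt17, a keratin listed here with stratum intermedium and stellate reticulum markers, was 920 and 1680 CPM against 483 and 268 CPM. Sp6 was 320 and 291 CPM against 454 and 408 CPM, above the levels of other dental epithelium given below. The label of an enamel-secreting cell rests on few UMIs in these cells. Erythroid RNA was also high among the maxillary ones, with Hbb-bs, a globin gene, at 5461 CPM against 35.8 CPM in the others, but at 181 against 2330 CPM in mandibular cells, and its part was not tested.

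Amelx, Ambn, Enam and Mmp20 sit on 3 chromosomes. In mm10 (GENCODE vM21), Ambn (ENSMUSG00000029288) lies at chr5:88455991-88468531 and Enam (ENSMUSG00000029286) at chr5:88487975-88506049, neighbours on the plus strand. Amelx (ENSMUSG00000031354) lies at chrX:169176114-169187200 on the minus strand, inside Arhgap6, which runs on the plus strand. Mmp20 (ENSMUSG00000018620) lies at chr9:7628231-7674979. As the 3 rule genes and the leading enamel gene outside the rule, they are shown with the 150 bases before each RefSeq start, from RefSeq's table for GRCm38.p6, which is mm10. All 4 genes matched the table. Capitals mark TATAAA, searched on both strands and found in 7.57% of 32851 promoter windows of the same length.
Amelx, chrX:169187210-169187359, minus strand: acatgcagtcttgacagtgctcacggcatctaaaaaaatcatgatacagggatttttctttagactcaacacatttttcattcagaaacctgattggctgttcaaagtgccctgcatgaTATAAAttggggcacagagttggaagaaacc
Ambn, chr5:88455841-88455990, plus strand: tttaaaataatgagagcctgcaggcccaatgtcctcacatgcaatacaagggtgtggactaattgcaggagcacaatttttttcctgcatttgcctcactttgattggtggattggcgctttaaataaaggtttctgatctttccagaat
Enam, chr5:88487825-88487974, plus strand: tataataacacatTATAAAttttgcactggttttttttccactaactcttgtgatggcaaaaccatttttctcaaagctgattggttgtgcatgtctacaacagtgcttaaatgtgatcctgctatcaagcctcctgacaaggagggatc
Mmp20, chr9:7628081-7628230, plus strand: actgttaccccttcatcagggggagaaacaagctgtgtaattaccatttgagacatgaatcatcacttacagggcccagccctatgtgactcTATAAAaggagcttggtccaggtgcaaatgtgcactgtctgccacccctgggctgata
Counted from RefSeq's start, which for Amelx is not the GENCODE start above, the match begins 31 bases before the start in Amelx, 58 in Mmp20 and 137 in Enam, and the Ambn window holds none. A match is a description of these letters, not a tested site.

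Ameloblast lineage cells were then set against other P1 dental epithelium of the same library. That class had the same depth, epithelial and collagen limits, at most 2 rule-gene UMIs and at least 1 UMI of a further marker gene that is not reported here, and held 942 maxillary and 787 mandibular cells. It also contained oral-type keratinocytes: Krt13 was at 1032 and 791 CPM and Krt4 at 206 and 353 CPM there, against 2.45, 2.75, 0.817 and 0.184 CPM in the ameloblast lineage. A gene was tested if its higher class reached 50 CPM in both jaws. A gene under 50 CPM in the ameloblast lineage was thus tested only where the other class was higher, and could not be called higher. Of 3942 genes tested, 440 (11.2%) lay at least 2-fold higher in the ameloblast lineage in both jaws and 458 (11.6%) at least 2-fold lower. No test was run, since the groups have no replicates, and the rule's choice of cells by matrix genes bears on every gene in this contrast. Intervals are exact at 95% and cover counting error only, not differences between animals. Over all these genes the maxillary median log2 ratio was -0.16 and the mandibular one -0.22.

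**Figure D2:**
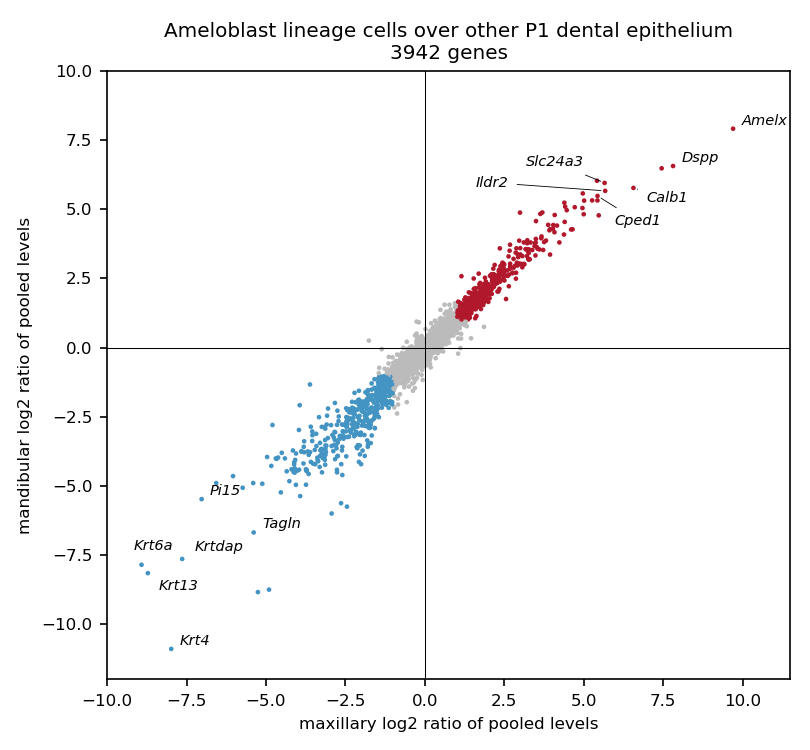
Each point is 1 of 3942 genes, with the log2 ratio of its pooled level in ameloblast lineage cells over other P1 dental epithelium in the maxillary library on the x axis and in the mandibular library on the y axis. Red and blue points are the 440 and 458 genes at least 2-fold higher or lower in both jaws. The points follow the diagonal, and Amelx, Dspp and Calb1 are at the upper end.

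Amelx was first among the genes that were higher. It was at 31029.5 CPM in maxillary and 56729.6 CPM in mandibular ameloblast lineage cells, against 37.3 and 234 CPM in other dental epithelium. The log2 ratios were 9.70 (95% interval 9.57 to 9.84) and 7.92 (7.87 to 7.98). The pooled level in macrophages was 199 and 720.5 CPM. The median macrophage held 0 and 2 Amelx UMIs. Dspp, which encodes the dentin proteins sialoprotein and phosphoprotein and is made for a short time by young ameloblasts, was at 1863 and 2124 CPM against 8.29 and 22.3 CPM. Its log2 ratios were 7.81 (7.53 to 8.12) and 6.57 (6.39 to 6.76), and its level in odontoblast-rule cells, which Dspp chose, was 4103 and 4521 CPM. Sparc, the other gene of the 8 on the dentin matrix list that reached the level limit, was lower. It was at 67.0 and 111 CPM in the ameloblast lineage against 181 and 234 CPM, and 9037 and 11664 CPM in odontoblast-rule cells.

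Calb1, which encodes the calcium-binding protein calbindin, was at 7366 and 9087 CPM against 77.8 and 165 CPM, with log2 ratios of 6.57 (6.47 to 6.66) and 5.78 (5.71 to 5.85). It was nearly absent from odontoblast-rule cells, at 1.71 and 7.50 CPM. Macrophages were at 103 and 98.0 CPM of Calb1 and at 31.5 and 32.4 CPM of Dspp. Among epithelial cells below the limit, Calb1 was at 50.2 and 121 CPM with 0 rule-gene UMIs, 334 and 458 CPM with 1 and 1359 and 2464 CPM with 2. Slc24a3, a sodium, calcium and potassium exchanger, was at 494 and 725 CPM against 9.79 and 11.6 CPM. Plod2, a lysyl hydroxylase of collagen, was at 1315 and 1805 CPM against 40.7 and 45.2 CPM, and was also high in odontoblast-rule cells at 1005 and 990.2 CPM. The other genes among the 12 highest were Ildr2, Cped1, Syt10, Stac3, Syt17, Tmem108 and Chst1. Their smaller log2 ratio of both jaws ran from 4.96 for Chst1 to 5.67 for Ildr2. The 12 lowest were Krt13, Krt4, Krt6a, Krtdap, Pi15, Tagln, Krt15, Sox6, Mindy4, Mt2, Zfp536 and Ly6d, of which Krt13, Krt4, Krt6a, Krtdap, Krt15 and Ly6d are genes of oral or stratified keratinocytes.

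**Figure D3:**
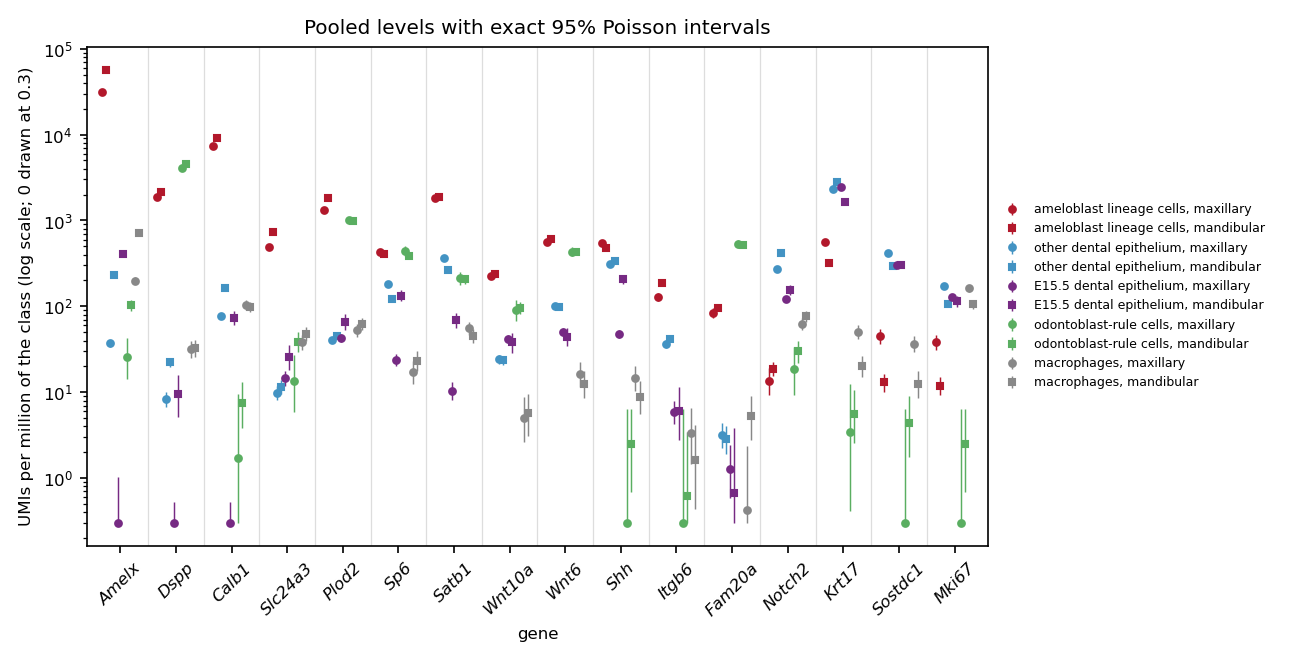
Pooled level of 16 genes in CPM (y axis, log scale) in ameloblast lineage cells, other P1 dental epithelium, E15.5 dental epithelium, odontoblast-rule cells (chosen by Dspp) and macrophages, with circles for maxillary and squares for mandibular libraries and bars for exact 95% Poisson intervals. Amelx, Calb1, Satb1, Wnt10a, Wnt6 and Itgb6 have their highest points in the ameloblast lineage, while Dspp and Fam20a are higher in odontoblast-rule cells.

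The late enamel genes were near 0. Klk4 was at 0 and 0.367 CPM, Amtn at 0 and 0.184 CPM and Odaph at 0 and 0.184 CPM. Odam, a protein of the maturation stage and of junctional epithelium, was at 23.3 and 30.7 CPM in the ameloblast lineage against 266 and 565 CPM in other dental epithelium, log2 ratios of -3.51 (-3.92 to -3.14) and -4.20 (-4.43 to -3.98). Slc24a4, the maturation-stage exchanger, was listed at 0 in both jaws, and Wdr72 was at 5.72 and 4.41 CPM.

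Of 27 listed genes other than matrix genes whose mutation causes amelogenesis imperfecta, 12 passed the level limit. Of these 12, 8 were higher in the ameloblast lineage in both jaws and none was lower, with a median log2 ratio of 1.69 against -0.19 for all genes. Among all 3942 genes tested, 11.2% were higher and 11.6% lower, shares that stand beside every list count of this contrast. The 8 genes are named next. They were Fam20a, Acp4, Itgb6, Lamb3, Sp6, Dlx3, Ltbp3 and Fam20c. Acp4, a phosphatase of the secretory stage, was at 88.2 and 164 CPM against 3.52 and 8.42 CPM. Itgb6, an integrin subunit, was at 129 and 186 CPM against 36.5 and 42.1 CPM. Fam20a, the partner of the secretory kinase Fam20c, was at 83.7 and 96.1 CPM against 3.18 and 2.84 CPM. It was higher still in odontoblast-rule cells, at 529 and 523 CPM.

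Secretory pathway genes formed the longest list that lay on the high side. Of 50 tested, 19 were higher, none was lower and 31 were not 2-fold apart in the same direction in both jaws, with a median log2 ratio of 0.99. Manf, a protein of the endoplasmic reticulum stress response, was at 803 and 723 CPM against 173 and 146 CPM. Pdia3, a disulfide isomerase, was at 1082 and 1054 CPM against 362 and 319 CPM. The translocon subunit Ssr4 was at 660.5 and 658 CPM against 219.9 and 205 CPM. The KDEL receptor Kdelr3, which returns proteins to the endoplasmic reticulum, was at 183 and 161 CPM against 44.6 and 46.5 CPM. Odontoblast-rule cells, the other secretory cells of the molar, had a summed list level of 19960 and 18542 CPM, against 15925 and 15038 CPM in the ameloblast lineage and 7496 and 6989 CPM in other dental epithelium.

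Among 18 calcium and ion transport genes tested, 7 were higher and 3 lower. The shares over all genes were 11.2% higher and 11.6% lower. Atp2b1, a calcium pump of the plasma membrane, was at 693 and 929 CPM against 129 and 115 CPM. Trpm7, a channel for magnesium and calcium, was at 1279.7 and 1612 CPM against 156 and 197 CPM. Itpr1, Itpr3, Cftr, Slc24a3 and Calb1 were the others that were higher. Alpl, alkaline phosphatase and a gene of the stratum intermedium, was at 11.4 and 10.7 CPM against 219.7 and 304 CPM, and Slc4a4 and Slc26a7 were also lower.

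The transcription factors split. Of 23 tested, 7 were higher (among them Sp6, Dlx3, Dlx4, Satb1, Sox21 and Klf4) and 5 lower (Pitx1, Dlx5, Trps1, Tbx1 and Grhl2). All genes together had 11.2% higher and 11.6% lower. Satb1, a chromatin organizer, was at 1823 and 1882 CPM against 361 and 267 CPM, log2 ratios of 2.34 (2.28 to 2.40) and 2.82 (2.76 to 2.88). Sp6, needed for ameloblast differentiation, was at 432 and 404 CPM against 182 and 121 CPM. It was at 442 and 382 CPM in odontoblast-rule cells, so its level did not set the ameloblast lineage apart from them. Sox21 was at 103 and 114 CPM against 8.29 and 3.97 CPM and was at 0 in odontoblast-rule cells of both jaws.

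The Wnt ligands Wnt6, Wnt10a and Wnt3a were higher in the ameloblast lineage than in other dental epithelium. Of 14 Wnt pathway genes tested these 3 were higher, Wnt5a and Sostdc1 were lower and 9 were not 2-fold apart in the same direction in both jaws. Over all genes 11.2% were higher and 11.6% lower, so the lower Wnt genes are near the share of all genes. Wnt10a was at 225 and 235 CPM against 24.3 and 23.7 CPM, log2 ratios of 3.21 (3.01 to 3.42) and 3.31 (3.12 to 3.52). A Wnt10a UMI was found in 150 of 195 (76.9%) and 359 of 432 (83.1%) ameloblast lineage cells, or 36.3% and 36.1% after thinning to 2000 UMIs, against 5.25% and 4.94% of other dental epithelium and 0.357% and 1.10% of macrophages. Odontoblast-rule cells were at 90.7 and 95.02 CPM of Wnt10a, below the ameloblast lineage in both jaws. Wnt6 was at 556 and 602 CPM against 100.3 and 98.9 CPM, with 435 and 432 CPM in odontoblast-rule cells. Wnt3a was at 117 and 107 CPM against 49.6 and 44.4 CPM. Among secreted inhibitors, Sostdc1 was at 44.9 and 13.0 CPM against 423 and 298 CPM, Dkk1 at 0.408 and 0.918 CPM and Sost at 0. The inhibitor Wif1 was at 15.1 and 110.0 CPM against 10.9 and 10.98 CPM, higher in the mandibular library and with a maxillary interval that holds 0 (log2 ratio 0.47, -0.09 to 1.01).

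Sonic hedgehog was held by the ameloblast lineage at a level within 2-fold of its surroundings. Shh was at 546 and 475 CPM against 311 and 334 CPM, log2 ratios of 0.81 (0.72 to 0.90) and 0.51 (0.43 to 0.58), and its share after thinning was 56.5% and 56.7% of cells against 30.8% and 35.0%. Of 7 Hedgehog pathway genes tested none was higher and 3 were lower, among them the receptor and target Ptch1 and Scube3. Ptch1 was at 128 and 135 CPM against 284 and 274 CPM.

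Of 19 BMP and TGF-beta pathway genes tested, Bmp4, Bambi, Smad6, Tgfb2, Tgfbr2 and Tgfbr3 were higher and none was lower. Tgfbr2, a TGF-beta receptor, was at 346 and 362 CPM against 49.97 and 39.1 CPM. Bmp4 was at 88.2 and 85.8 CPM against 26.9 and 27.0 CPM, and Bmp2, a ligand of odontoblasts, was at 1.63 and 1.47 CPM against 483 and 406 CPM in odontoblast-rule cells. Of 17 listed Notch pathway genes 5 were tested, with Notch1, Notch2 and Hes1 lower and none higher. Of 9 listed ectodysplasin genes 3 were tested, with Eda and Tnfrsf19 lower and none higher. Notch2, Hes1 and all ectodysplasin genes were under 50 CPM in the ameloblast lineage, so they could not be called higher. Nothing is read from these counts about the pathways. Notch2 was at 13.5 and 18.7 CPM against 274 and 418 CPM, and its target Hes1 at 11.03 and 18.5 CPM against 162 and 253 CPM. The ligand Jag2 was at 80.1 and 92.0 CPM against 49.0 and 37.9 CPM, under 2-fold in the maxillary library. Of 4 FGF pathway genes tested, Spred1 and Spred2 were lower.

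Of 27 junction and polarity genes tested, Cdh2, Vangl2 and Celsr1 were higher and 9 were lower, among them the desmosomal genes Dsp, Dsc2, Dsc3, Pkp1 and Jup. Cdh2, N-cadherin, was at 135 and 187 CPM against 27.0 and 27.4 CPM. Celsr1, of planar cell polarity, was at 331 and 392 CPM against 82.4 and 81.8 CPM. Of 19 hemidesmosome and basement membrane genes, Itgb4, Lamb3 and Itgb6 were higher and Lama5, Lamb1, Lamc1 and Col4a1 lower. The shares of higher genes in both lists are near the 11.2% of all genes, and nothing is read from them. Of all genes, 11.6% were lower.

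**Figure D4:**
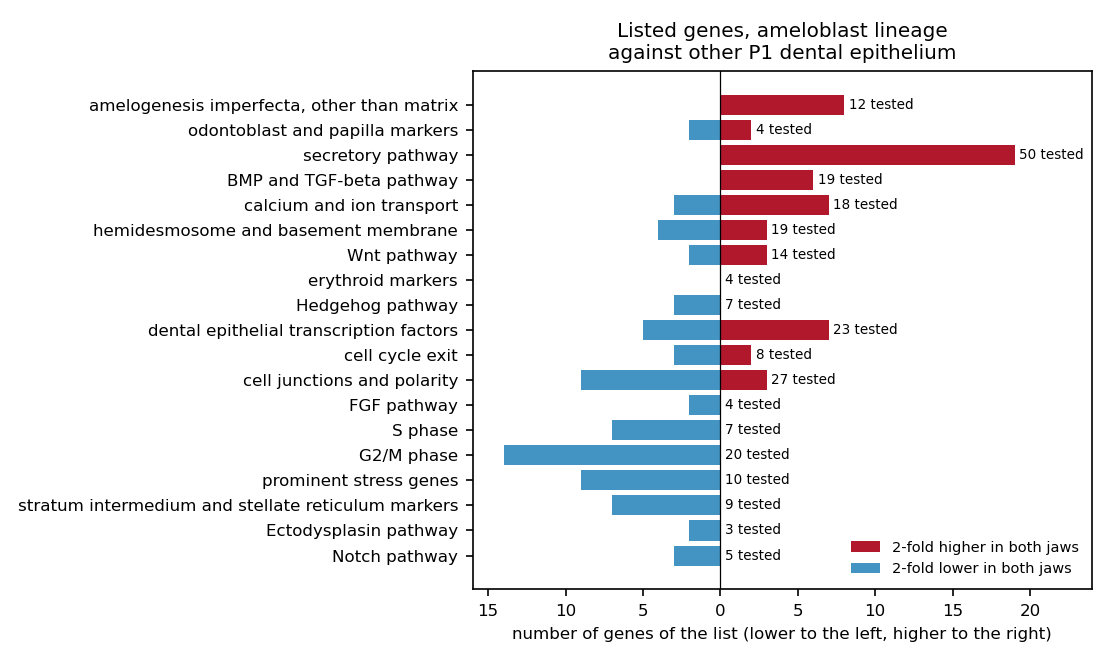
Number of genes of each list (x axis) that were at least 2-fold higher (red, to the right) or lower (blue, to the left) in ameloblast lineage cells than in other P1 dental epithelium in both jaws, with the number tested printed beside each bar. Lists with at least 3 genes tested are shown, ordered by median log2 ratio. Secretory and amelogenesis imperfecta genes have red bars alone, and S phase, G2/M, stress, Notch and stratum intermedium lists blue bars alone. A gene under 50 CPM in the ameloblast lineage could not count as higher.

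Cell cycle genes were low. Of 42 listed S phase genes 7 were tested and all were lower, and of 52 G2/M genes 20 were tested and 14 were lower. None was higher, but a gene under 50 CPM in the ameloblast lineage could not be called higher. Between maxillary and mandibular cells, where the ameloblast lineage itself must reach that level, 1 S phase and 10 G2/M genes were tested. The direction of these counts is set in part by the limit, and nothing is read from it. Mki67 was at 38.4 and 11.9 CPM against 173 and 105 CPM, and a Mki67 UMI was found after thinning in 6.22% and 2.34% of ameloblast lineage cells against 17.0% and 10.3% of other dental epithelium. Cdkn1a, an inhibitor of cell cycle kinases, was at 325 and 375 CPM against 59.3 and 68.2 CPM. Of 8 genes of cell cycle exit tested, Cdkn1a and Rb1 were higher, and Cdkn1c, another such inhibitor, and the cyclins Ccnd1 and Ccnd2 were lower. Cdkn1c was at 28.2 and 35.3 CPM against 131 and 109.9 CPM. Of 10 genes of dissociation and stress response tested, 9 were lower, with Fos at 54.3 and 39.3 CPM against 186 and 289.8 CPM. Whether the handling of the classes differed was not tested.

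Markers of other cells were given for the same cells. Of 9 stratum intermedium and stellate reticulum markers tested, 7 were lower (Notch1, Alpl, Enpp2, Igfbp5, Krt15, Fos and Krt17) and none was higher, and the summed level of all 20 was 1332 and 809 CPM against 4356 and 5025 CPM. Of the 20 odontoblast and papilla markers 4 were tested, of which Dspp and Wnt10a were higher and Vim and Sparc lower. Immune markers summed to 273 and 377 CPM, against 54.5 and 287 CPM in other dental epithelium, led by C1qb at 54.3 CPM and S100a9 at 161 CPM, and endothelial markers to 16.7 and 34.9 CPM, led by Egfl7 at 13.9 and 11.9 CPM. S100a8 was at 0 in maxillary cells, as were Cdh5, Kdr, Tek and Eng. Erythroid markers summed to 1735 and 4297 CPM, against 1866 and 4293 CPM in other dental epithelium, led by Hbb-bs, and 95.9% and 91.4% of the globin UMIs were in 5 cells of each library. With all cells of at least 1% globin or at least 3 immune UMIs left out of every class, 445 genes were higher and 461 lower, near the 440 and 458 above.

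The same cells were set against E15.5 dental epithelium of the same jaw, which met the same epithelial and collagen limits and held at least 1 UMI of the same further marker gene. There were 467 maxillary and 76 mandibular such cells, with medians of 13080.0 and 15533 UMIs, from libraries of 109723360 and 86659227 UMIs. Stage and library cannot be told apart here, and this contrast shares the ameloblast lineage cells with the one above. Of 3876 genes tested, 580 (15%) were at least 2-fold higher at P1 in both jaws and 505 (13%) lower, with medians of -0.07 and -0.15. The matrix genes were almost silent at E15.5: the 740 maxillary and 104 mandibular epithelial cells held 3 and 7 UMIs of Ambn, Enam and Mmp20 in all, and no maxillary cell met the rule. The only mandibular cell that met it also held all 604 Amelx UMIs of the class. Amelx was therefore at 0.287 CPM in the maxillary and 411 CPM in the mandibular E15.5 epithelium, and Calb1 at 0 and 74.1 CPM. Without that cell, 579 genes were higher and 511 lower.

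The 10 highest genes, ordered by the smaller jaw ratio, were St8sia1, Dspp, Scrn1, Apba1, Amelx, Susd5, Calb1, Chst1, Tspan8 and Prr16. The places of Amelx, Dspp and Calb1 depend on the E15.5 mandibular cell that met the rule. That cell held 604 of 604, 14 of 14 and 108 of 109 UMIs of these genes in its class. St8sia1, a sialyltransferase of ganglioside synthesis, was at 320.2 and 365 CPM at P1 and at 0.574 and 0.680 CPM at E15.5, log2 ratios of 9.12 (7.76 to 11.003) and 9.07 (6.59 to 14.37). Apba1, an adaptor protein, was at 602 and 648 CPM against 0.718 and 3.40 CPM. Satb1 was at 1823 and 1882 CPM against 10.3 and 68.7 CPM. The 10 lowest were Krt6a, Krt13, Krtdap, Krt15, Dmkn, Fst, Krt4, Dgki, Fgfbp1 and Aqp3. Fst, follistatin, which binds activin and opposes ameloblast differentiation, was at 1.63 and 0.184 CPM at P1 against 214 and 56.5 CPM. Krt13 was at 2720.1 and 5592 CPM in the E15.5 class, which shows that this class too holds oral-type keratinocytes.

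The list counts against E15.5 stand beside shares of 15% higher and 13% lower among all 3876 genes tested. Of 15 Wnt pathway genes tested, 6 were higher at P1 (Wnt3a, Wnt6, Wnt10a, Fzd3, Fzd6 and Wls) and 3 lower (Wnt4, Lrp4 and Sostdc1). Wnt10a was at 41.8 and 38.1 CPM at E15.5, with log2 ratios of 2.43 (2.22 to 2.64) and 2.63 (2.24 to 3.04). Wnt6 was at 50.5 and 44.2 CPM, with log2 ratios of 3.46 (3.29 to 3.63) and 3.77 (3.41 to 4.14). Shh was at 47.6 and 206 CPM at E15.5, and the log2 ratios of 3.52 (3.34 to 3.70) and 1.21 (1.03 to 1.38) differed between the jaws by more than counting error. Of 12 amelogenesis imperfecta genes 8 were higher and none lower, of 51 secretory genes 20 were higher and none lower, and of 17 ion transport genes 9 were higher and Slc8a1 lower. Of 22 transcription factors 7 were higher and 4 lower, and of 19 BMP and TGF-beta genes 7 were higher with Fst lower. All 4 globin genes tested were lower at P1, so the erythroid list (9013 and 11124 CPM at E15.5) moved with this contrast. With the cells of globin or immune RNA left out, 571 genes were higher and 513 lower. Of 13 stress genes 12 were lower.

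Within the ameloblast lineage, cells were ordered by their share of Ambn, Enam and Mmp20 UMIs and the highest tertile (65 and 144 cells) was set against the lowest (65 and 144 cells). The tertiles are ranges of a score, not cell types, and their genes were left out. Of 3380 genes tested, 92 (2.72%) were at least 2-fold higher in the highest tertile in both jaws and 99 (2.93%) lower. The medians of all genes were -0.13 and -0.13. With ratios centred on that median the counts were 124 higher and 77 lower, and with enamel and mitochondrial genes left out of the total 125 and 85. They moved further to 40 and 22 with at least 10 rule-gene UMIs and to 49 and 154 with cells ordered by Amelx. Each library alone gave 202 and 335 (maxillary) and 153 and 149 (mandibular), and the other alternatives that moved them are given at the end.

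Amelx went with the rule genes, from 5430.0 to 66352 CPM in maxillary and from 22195 to 95689 CPM in mandibular cells. Enam, which helped set the score, was at 70.1, 290.3 and 4538 CPM in the lowest, middle and highest maxillary tertile and at 99.5, 1008 and 9630 CPM in the mandibular ones. Ambn was at 163, 377 and 1774 CPM and at 194, 683 and 2769 CPM. Mmp20 was at 124, 758 and 1368 CPM and at 414, 1166 and 1678 CPM. These 3 genes set the order of the cells, so their steps are descriptions of it.

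Calb1 and Dspp differed less between the middle and highest tertile than between the lowest and middle. The cells with 3 or fewer Amelx UMIs, whose Calb1 and Dspp levels were low, were not left out of the tertiles. Dspp was at 698, 2430 and 2672 CPM in the maxillary tertiles and at 1392, 2419 and 2596 CPM in the mandibular ones. Calb1 was at 4167, 8600 and 9877 CPM and at 7620.4, 9812 and 9915 CPM. Neither was 2-fold apart in the mandibular cells. Shh ran the other way at its upper end, at 604, 662 and 373 CPM and at 564, 489 and 375 CPM. Wnt10a was at 171, 244 and 269.5 CPM and at 245, 225 and 235 CPM, with mandibular intervals that overlap, and no Wnt gene was 2-fold apart in both jaws among 11 tested.

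**Figure D5:**
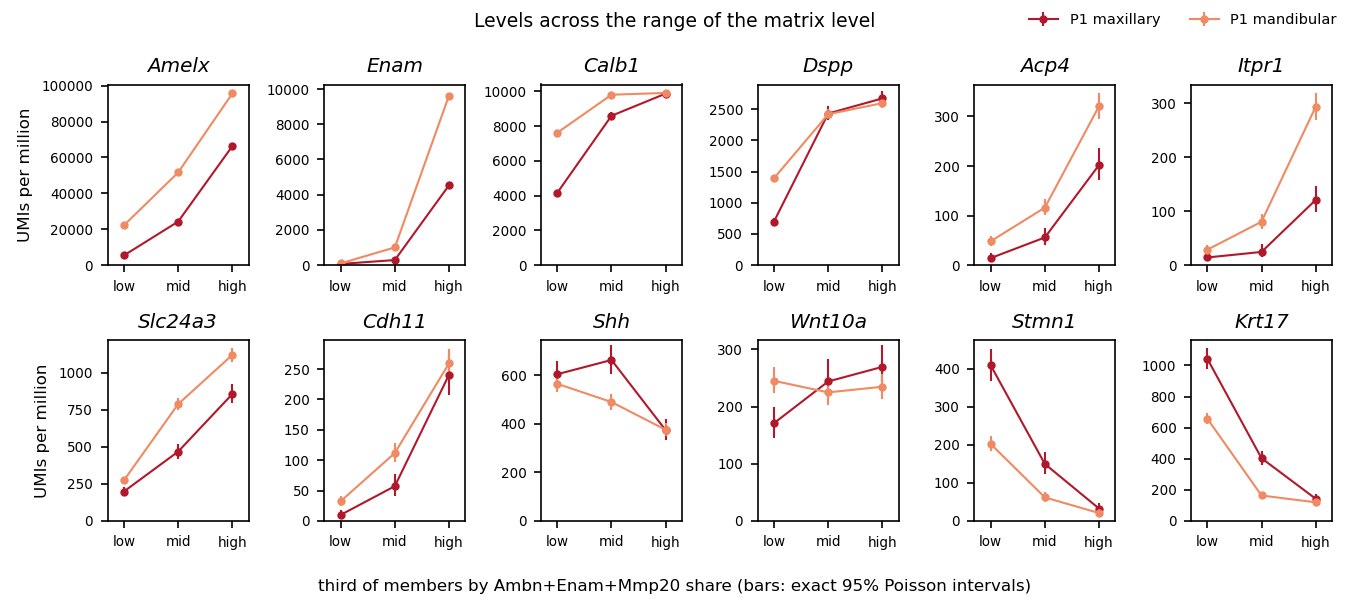
Pooled level in CPM (y axis, each from 0) of 12 genes in the low, middle and high tertile of ameloblast lineage cells by Ambn+Enam+Mmp20 share (x axis), for 65 cells per maxillary and 144 per mandibular tertile, with exact 95% Poisson intervals. Amelx, Acp4, Itpr1, Slc24a3 and Cdh11 are highest in the high tertile, Dspp and Calb1 lie close together in the middle and high ones, and Shh, Stmn1 and Krt17 are lowest in the high one.

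The 10 highest genes in the highest tertile were Akain1, Itpr1, Cdh11, Thsd1, Acp4, Ckb, Chn2, Lama3, St3gal4 and Ubash3b. Itpr1, a calcium release channel of the endoplasmic reticulum, was at 121 and 294 CPM against 14.2 and 28.6 CPM, log2 ratios of 3.09 (2.25 to 4.05) and 3.36 (2.96 to 3.79). Cdh11, a cadherin better known from mesenchyme, was at 241 and 259.5 CPM against 9.86 and 32.3 CPM. Acp4 was at 202 and 321 CPM against 14.2 and 48.2 CPM. Ckb, brain-type creatine kinase, was at 826 and 1018 CPM against 127 and 144 CPM. Of 13 amelogenesis imperfecta genes tested 5 were higher (Fam20a, Acp4, Itgb6, Lama3 and Fam20c) and none lower, and of 16 ion transport genes Itpr1, Atp2b1, Slc24a3 and Trpm7 were higher. Of 53 secretory genes Ssr2 and Dnajb9 were 2-fold higher, a share near the 2.72% of all genes, with a list median of 0.43 against -0.15 for all genes.

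Among the 10 lowest genes were Sncaip, Stmn1, Adamtsl1, Lypd6, Ntng1, Nlgn1, Flrt2, Pla2r1 and Pam. Stmn1, which destabilizes microtubules in dividing and young cells, was at 32.4 and 20.6 CPM against 410 and 203 CPM. Ccnd1 was at 18.7 and 20.1 CPM against 177 and 72.5 CPM, and Krt17 at 142 and 119 CPM against 1043 and 658 CPM. Cells with 3 or fewer Amelx UMIs, whose Krt17 level was high, were not left out of the tertiles. Their Top2a level was 163 CPM against 44.2 CPM in the other selected maxillary cells, and 10.0 against 10.9 CPM in mandibular cells. Their part in these differences was not tested. The G2/M list summed to 635 and 649.6 CPM in the highest tertile and 3228 and 1346 CPM in the lowest, and Hmgb2 and Tmpo of 8 tested were lower in both jaws. In maxillary cells 64.8% of the Top2a, Mki67 and Cenpf UMIs lay in 5 cells. The erythroid list was also lower in the highest tertile, at 88.6 and 319 CPM against 4506 and 547 CPM, with 13080.4 CPM in the mandibular middle tertile. The immune list was at 8.73 against 463 CPM in the maxillary and at 288 against 130 CPM in the mandibular cells. With the cells of globin or immune RNA left out, 84 genes were higher and 92 lower.

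Across single cells thinned to 2000 UMIs, the genes most like the matrix share were ranked by the smaller Spearman's rho of the jaws, over 193 maxillary and 427 mandibular cells and 2786 genes. Amelx was first, with rho of 0.61 and 0.64. Ppic, a prolyl isomerase of the secretory pathway, followed with 0.43 and 0.48, then the gene model Gm49708 with 0.50 and 0.42, Maf with 0.43 and 0.40, Plod2 with 0.38 and 0.42, Atp2b1 with 0.41 and 0.36 and Slc24a3 with 0.35 and 0.44. At the other end were Hsp90ab1 with -0.34 and -0.38, Ptma with -0.35 and -0.34, and Prdx2 with -0.31 and -0.47. The cells of a library share its depth and free RNA, and a cell with more enamel UMIs has fewer left for other genes, so these values are descriptions.

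Maxillary and mandibular cells were compared last, though jaw and library cannot be told apart. Of 3461 genes tested, 24 (0.693%) were at least 2-fold higher in maxillary cells with an interval that leaves out 0 and 20 (0.578%) lower. The 183 shared droplets, read in both libraries, gave the noise of reading the same droplets again, which leaves out any difference between cells or samples: 5 of 3550 genes (0.141%) were apart, with an SD of the log2 ratio over genes of 0.23, and none of the 44 genes was among them. With shared barcodes dropped from both libraries, which left 12 maxillary cells, the jaw counts were 502 higher and 204 lower of 4183 genes. The matrix level was lower in maxillary cells. Cut at the same values, 45.1% of maxillary and 28.0% of mandibular cells were in the low range and 23.1% and 38.0% in the high range.

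The 5 genes highest in maxillary cells were C1qa, Top2a, Cenpf, C1qb and Cenpa. C1qa was at 50.7 against 7.90 CPM and C1qb at 54.3 against 10.5 CPM. Both are markers of macrophages, and 99.7% of the C1qa, C1qb and C1qc UMIs of maxillary cells lay in 5 cells. The log2 ratios of 2.68 for C1qa and 2.38 for C1qb turned to -0.77 and -1.35 with the barcodes of the highest doublet scores left out. Top2a, of dividing cells, was at 64.1 against 10.8 CPM, and in the low range of matrix level at 132 against 24.2 CPM. In the middle range it was at 5.44 against 4.05 CPM, with an interval that holds 0, and in the high range at 0 against 6.18 CPM. Of the Top2a, Mki67 and Cenpf UMIs of maxillary cells, 64.8% lay in 5 cells. With at least 10 rule-gene UMIs per cell, 4 genes were higher in maxillary cells in place of 24.

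The 5 lowest in maxillary cells were S100a9, S100a8, Stfa1, Wif1 and Myl1. The log2 ratios of Myl1 and Stfa1 turned to 0.30 and 0.16 with shared barcodes dropped from both libraries. S100a8, S100a9 and Stfa1 are genes of neutrophils, and 92.3% of S100a8 and S100a9 UMIs of mandibular cells lay in 5 cells. Wif1, a secreted Wnt inhibitor, was at 15.1 against 110.0 CPM, and was higher in mandibular cells in the low, middle and high range of matrix level. It was at 59.3 and 84.6 CPM in macrophages and at 1524 and 933 CPM in odontoblast-rule cells, so the maxillary value was below that of macrophages and the mandibular value above it. All 4 globin genes tested were lower in maxillary cells. Amelx, at a log2 ratio of -0.87 (-0.88 to -0.86), was within 2-fold overall and was apart by -1.49, -0.38 and -0.35 in the low, middle and high range. Wnt10a was at a log2 ratio of -0.06 (-0.21 to 0.08), an interval that holds 0 over all cells. In the low range of matrix level it was lower in maxillary cells, at -0.40 (-0.65 to -0.16), and in the middle and high range the values were 0.24 (-0.01 to 0.49) and 0.09 (-0.19 to 0.37).

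The 12 maxillary cells with no partner barcode stood apart from the rest. They held 46991 UMIs with a median of 3723 per cell, and erythroid markers made up 64778 CPM of them. Their Amelx level was 3171 CPM, Calb1 787 CPM and Dspp 468 CPM, each below the 31029.5, 7366 and 1863 CPM of all maxillary cells, while Sp6 at 383 CPM and Satb1 at 1532 CPM were near the 432 and 1823 CPM there. Most of the Amelx, Calb1 and Dspp UMIs came from the cells of 1625 and 1446 UMIs. Amelx was 1.66% and 7.61% of their UMIs, with 19 and 12 Calb1 and 6 and 8 Dspp UMIs. In the others Amelx was at most 0.244%, Calb1 at most 2 UMIs and Dspp at most 4. With shared barcodes dropped from both libraries in every class, these 12 were the maxillary cells and 207 genes were higher than in other dental epithelium and 191 lower in both jaws.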

How the data were processed

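The authors deposited 1 gene-by-barcode matrix of UMI counts per library, made with Cell Ranger 7.0.1 on mm10 per the labels and the study's methods. The counts are not normalized, cover 32285 genes and were used as deposited. UMIs were pooled over the cells of a class and divided by the class total (CPM), and log2 ratios were given exact conditional binomial intervals with a floor of 3 counts per class. A gene counted as higher or lower if it was at least 2-fold apart in the same direction in both jaws. The 11 genes that the rules used were left out of these counts. Shares of cells were also computed after thinning each cell to 2000 UMIs. Macrophages were cells with at least 3 UMIs of C1qa, C1qb and C1qc. Doublets were not removed, and dropping the highest Scrublet scores was an alternative.

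The 24 gene lists hold 586 genes, of which 584 were in the files. Outside these lists, genes were named by rank of the smaller jaw ratio (12, 10, 10 and 5 per direction), without ribosomal, mitochondrial and unnamed gene models. The rank correlation names its first and last genes. Some genes are not reported here. Members, lists and tests were chosen with earlier results of these data known. The calculations were tested on simulated data. Python 3.11.15, numpy 2.4.6, scipy 1.17.1, pandas 2.3.3, matplotlib 3.10.9 and scanpy 1.11.5 were used.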

Additional observations from a re-analysis of the deposited data

Results flagged for a closer look

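A signal stood in a sample used only for comparison. In the E15.5 mandibular library, 1 of 7947 barcodes held 604 Amelx UMIs of 12735 (4.74%), while the next highest barcode of that library held 5 and the highest of the E15.5 maxillary library 2. It also held 7 UMIs of Ambn, Enam and Mmp20, 108 of Calb1, 14 of Dspp and 50 of the epithelial genes, and its barcode was in neither P1 library. It is the only E15.5 cell that met the rule, and where it came from was not tested.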

How the results depend on the processing

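No paired analysis was possible because the 1 library per stage and jaw leaves no replicates to pair, though classes were compared within a library or a jaw. The limits are that shared barcodes leave the jaw of most maxillary cells undetermined, that intervals cover counting error alone, and that a gene at few UMIs per class cannot be placed. Of 162 counts under alternatives, 117 stayed within 1.5 times the reported count and 45 did not. The cause was not tested unless fewer cells or other genes were counted by construction.

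Below, a pair is the number higher and lower. For the tertiles (92 and 99 genes), the pair was 57 and 64 with at least 5 rule-gene UMIs, 40 and 22 with at least 10, 43 and 45 with cells cut into 2 ranges, 144 and 168 with the outer ranges of 5, 49 and 154 with cells ordered by Amelx, 153 and 149 in the mandibular and 202 and 335 in the maxillary library alone. Lower genes were 65 with at most 2 collagen UMIs. That limit left 122 and 239 cells, and at least 10 rule-gene UMIs left 111 maxillary cells. With shared barcodes dropped from both libraries, 12 maxillary cells were left, and the pairs were 207 and 191 against other dental epithelium, 300 and 270 against E15.5, 6 and 12 for the tertiles and 502 and 204 between the jaws. With genes from 20 CPM, lower genes were 991 against other dental epithelium, 1094 against E15.5 and 263 for the tertiles, and the jaw pair was 82 and 56. From 100 CPM these were 225, 264, 38 and 9 and 12. From 10 UMIs the pairs were 841 and 2861, 1155 and 2403, and 184 and 687. In the mandibular library alone, 822 genes were lower than at E15.5. Between the jaws, at least 10 rule-gene UMIs left 4 higher genes.

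Of 2501 recomputed values of 128 log2 ratios, each of a gene in a comparison, 2005 stayed within the interval of the reported value, 492 moved and 4 reversed. Those 4 were jaw ratios: Myl1 (0.30) and Stfa1 (0.16) with shared barcodes dropped from both libraries, and C1qb (-1.35) and C1qa (-0.77) with the highest doublet scores dropped. The last setting and 10 rule-gene UMIs for the jaws, each library alone, cells with globin or immune RNA left out and the E15.5 cell left out were chosen after seeing the data.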
